A study of Sus scrofa with 6 samples.

Results

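The 10 genes described here drive entry into mitosis and exit from it: the cyclins CCNB1, CCNB2 and CCNA2, the phosphatases CDC25B and CDC25C, the kinases PLK1, AURKA and AURKB, the activator of the anaphase-promoting complex CDC20, and the spindle checkpoint protein MAD2L1. They were taken as every probe set that the array annotation gives to one of these symbols, which gave 10 genes of the 6765 that the annotation names, and 11 of the 23999 probe sets of the Affymetrix Porcine Genome Array. AURKA had 2 probe sets and the other genes 1 each, and all 11 were bright enough to be tested. The rule used the annotation and no measured value, but the 10 symbols were chosen with earlier results of these data known.

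The arrays hold RNA of cloned pig embryos, made by nuclear transfer (NT): an oocyte is stripped of its own chromosomes and given the nucleus of a body cell. The groups were NT embryos injected with an antibody against DJ-1, the product of PARK7, which guards cells against oxidative stress (anti-DJ1, 2 arrays), NT embryos injected with IgG as the control antibody (2 arrays), NT embryos with no injection (1 array), and the donor cells (1 array), which were cultured fibroblasts established from an adult Meishan pig. All embryos were built from that donor line and from slaughterhouse oocytes, and each embryo array held a pool of 23 to 26 embryos taken 28 h after transfer. By the replicate numbers, trial 1 held 1 array of each group, and trial 2 held biologically different pools of both injected groups. The labels call the pools 2-cell, while the design text says only that many embryos had just reached that stage, so a pool may mix embryos on either side of the first cleavage.

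In a dividing cell, B-type cyclins accumulate before mitosis and activate the kinase CDK1, which WEE1-type kinases hold back and CDC25 phosphatases release. PLK1 and the Aurora kinases then act on centrosomes, spindle and chromosomes, MAD2L1 delays anaphase until chromosomes are attached, and CDC20 directs the anaphase-promoting complex (APC/C) to destroy cyclin B. A fully grown oocyte stores messenger RNA for many of these proteins, since it must finish meiosis and carry out the first cleavages with little transcription of its own. The transcript of such a gene is thus a store as well as a sign of division, and its protein is controlled by translation and destruction, which arrays do not measure.

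Signals are MAS5 values, a linear brightness per probe set that the authors deposited. Background was read from the Tag controls, probe sets that match no pig transcript, of which the highest per array lay between 21.4 and 47.0. Oocyte markers identified the embryo pools: 7 of 10 listed were on the array, all 7 lay above background on each embryo array, and their summed signal was 54892 to 70049.7 in embryos against 166 in donor cells. Of 9 fibroblast markers the summed signal was 2696 to 3497 in embryos and 70202 in donor cells, where VIM, THY1 and SPARC were high, while LUM, DCN and POSTN were not above background there. COL1A2, COL3A1 and FBN1 were at 459, 584 and 731 in donor cells, against up to 355, 406 and 635 in embryos. DCN was higher in embryos (54.7 to 111) than in donor cells (5.58). Of the 9, 7 lay above background on each embryo array and 6 on the donor array. Cumulus and granulosa markers (9 on the array) summed to 146 to 267 in embryos and 182 in donor cells, with 0 to 3 of them above background on any array. Of 7 blood, endothelial and epithelial markers the sum was 8673 to 11035 in embryos and 4978 in donor cells, most of it from EPCAM, CDH1 and HBB. Whether these other cell types contributed to the values below was not tested.

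Each gene's values are given below as trial 1 and then trial 2 for the injected groups. Among the cyclins, CCNB1, the main mitotic cyclin, had signals of 27742 and 17780.3 in anti-DJ1 embryos, 25920.1 and 19646 in IgG embryos, 31586 in the non-injected pool and 241.9 in donor cells. All 5 embryo pools thus lay far above the donor cells, and both trial 2 pools below the 3 pools of trial 1. CCNB2, the second B-type cyclin, had 1866 and 1644 in anti-DJ1 embryos, 1876 and 1661 in IgG embryos, 1664 in the non-injected pool and 57.0 in the donor line. Its 5 embryo pools averaged 1742 ± 118 (SD), and it varied little among embryos. CCNA2, cyclin A2, which acts in S phase and early mitosis, had 195 and 337 in anti-DJ1 embryos, 325 and 337 in IgG embryos, 73.1 in the non-injected pool and 34.6 in the donor line. Its non-injected pool stood well below the 4 injected pools, and the donor value was barely above the background of that array, 34.3.

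Of the phosphatases, CDC25B, which starts CDK1 activation, had 1515 and 1349 in anti-DJ1 embryos, 1559.7 and 1818 in IgG embryos, 1704 in the non-injected pool and 869 in the donor line. CDC25C, which works in the feedback that completes the activation, was dim everywhere, with 78.7 and 77.0 in anti-DJ1 embryos, 54.5 and 57.2 in IgG embryos, 39.3 in the non-injected pool and 40.1 in the donor line. Its non-injected value was not above the background of that array (47.0), so 5 of the 6 arrays measured it.

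PLK1, a kinase needed for mitotic entry and spindle assembly, had 769 and 2016 in anti-DJ1 embryos, 755 and 2109 in IgG embryos, 836 in the non-injected pool and 7.90 in the donor line, where it was not above background. The brighter AURKA probe set, for the centrosomal Aurora kinase, had 9544 and 10875 in anti-DJ1 embryos, 9343 and 12594 in IgG embryos, 10047 in the non-injected pool and 135 in the donor line. Its dimmer probe set had 988 and 1591 in anti-DJ1 embryos, 1125 and 1662 in IgG embryos, 716 in the non-injected pool and 48.4 in the donor line, and likewise placed every embryo pool highest. AURKB, the Aurora kinase of the chromosomal passenger complex, had 463 and 1857 in anti-DJ1 embryos, 390.2 and 1912 in IgG embryos, 333 in the non-injected pool and 189.6 in the donor line. Both trial 2 pools lay far above the 3 embryo pools of trial 1 for PLK1 and AURKB.

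CDC20 had 583 and 1728 in anti-DJ1 embryos, 571 and 1769 in IgG embryos, 700.3 in the non-injected pool and 4.63 in the donor line, where it too was not above background. MAD2L1 had 23146.5 and 11921.5 in anti-DJ1 embryos, 25397 and 12451 in IgG embryos, 28825 in the non-injected pool and 4000.0 in the donor line. These genes thus stood on opposite sides between trials, CDC20 higher and MAD2L1 lower in trial 2.

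**Figure D1:**
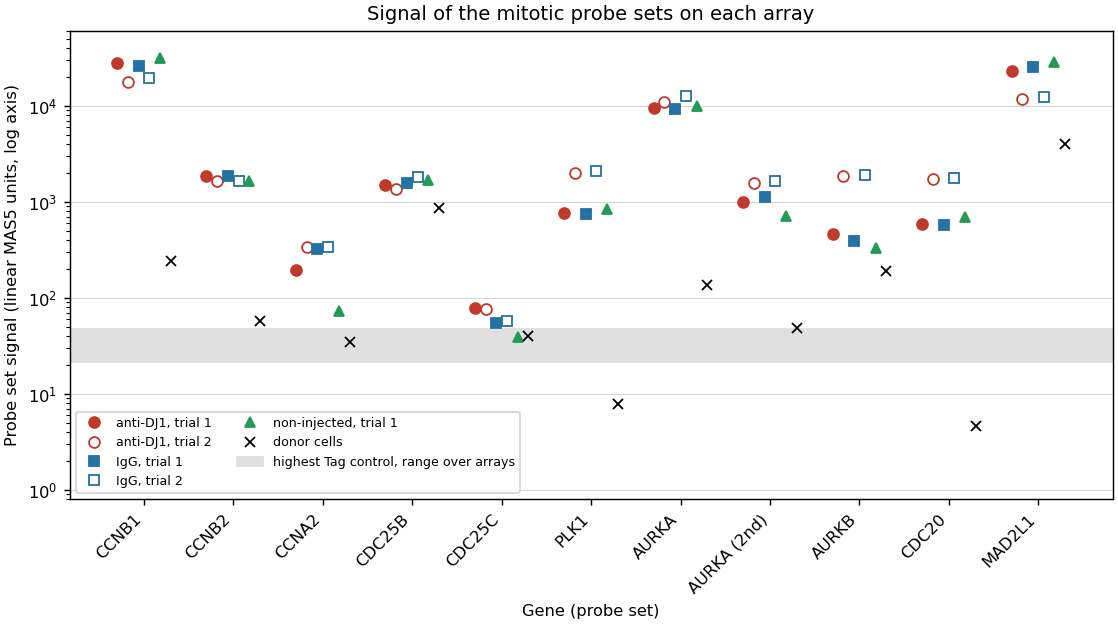
Signal of each probe set on the 6 arrays (linear MAS5 units on a log axis), with 1 point per array and the grey band spanning the highest Tag control of the arrays (21.4 to 47.0). AURKA (2nd) is the dimmer AURKA probe set. The injected groups overlap for most genes, open symbols (trial 2) lie apart from filled ones (trial 1) for PLK1, AURKB, CDC20 and MAD2L1, and the donor cell crosses lie lowest for all genes but CDC25C.

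Setting anti-DJ1 beside IgG embryos asks whether blocking DJ-1 alters transcripts of the division machinery. None of the 10 genes passed the test, and 8 of them lay within 0.24 of no difference on the log2 scale. The test was limma on log2(signal + 4.57) with the trial as a block, adjusted by Benjamini-Hochberg over 14399 probe sets, and of these 0 passed (0%) while 838 had an unadjusted p under 0.05 (5.82%). None of the 10 genes had an unadjusted p under 0.05, their lowest adjusted p was 0.916, and their median log2 change was -0.021, against -0.0054 over all tested probe sets.

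For 7 of the genes, and for CDC25B, the interval was narrow. CCNB1 averaged 22761 ± 7044 in anti-DJ1 embryos and 22783 ± 4437 in IgG embryos (SD, n = 2 each), a fitted ratio of 0.984 with a 95% confidence interval of 0.843 to 1.15. For MAD2L1 the ratio was 0.934 (0.810 to 1.08), for AURKA 0.939 (0.793 to 1.11) and for CCNB2 0.992 (0.802 to 1.23). Ratios of PLK1, CDC20 and AURKB were 0.986, 0.999 and 1.07, with intervals between 0.766 and 1.38. CDC25B had a ratio of 0.850 (0.685 to 1.05). For these genes a change of 1.5-fold or more in either direction lay outside the interval.

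The largest differences were those of CDC25C and CCNA2, and neither passed. CDC25C averaged 77.9 ± 1.23 in anti-DJ1 embryos and 55.8 ± 1.90 in IgG embryos, and both anti-DJ1 pools lay above both IgG pools, as in 8.7% of tested probe sets. Its log2 change was 0.45 ± 0.44 (SE, adjusted p = 0.951), made up of 0.50 for trial 1 and 0.40 for trial 2. CCNA2 averaged 266 ± 100.1 in anti-DJ1 embryos and 331 ± 8.38 in IgG embryos. The fitted difference was -0.36 ± 0.27 (adjusted p = 0.927) and came from trial 1 (-0.73), with -0.0025 in trial 2. CDC25B averaged 1432 ± 118 in anti-DJ1 embryos and 1689 ± 182 in IgG embryos, and both anti-DJ1 pools lay below both IgG pools, as in 8.6% of tested probe sets. Its difference was -0.24 ± 0.14 (adjusted p = 0.916), at -0.041 for trial 1 and -0.43 for trial 2. CDC25B and CDC25C were thus the 2 of 10 genes whose groups did not overlap, against 17.3% of tested probe sets. The labels do not say how many females or oocyte batches each pool drew on, so the spread between the trials holds whatever differed between these pools.

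**Figure D2:**
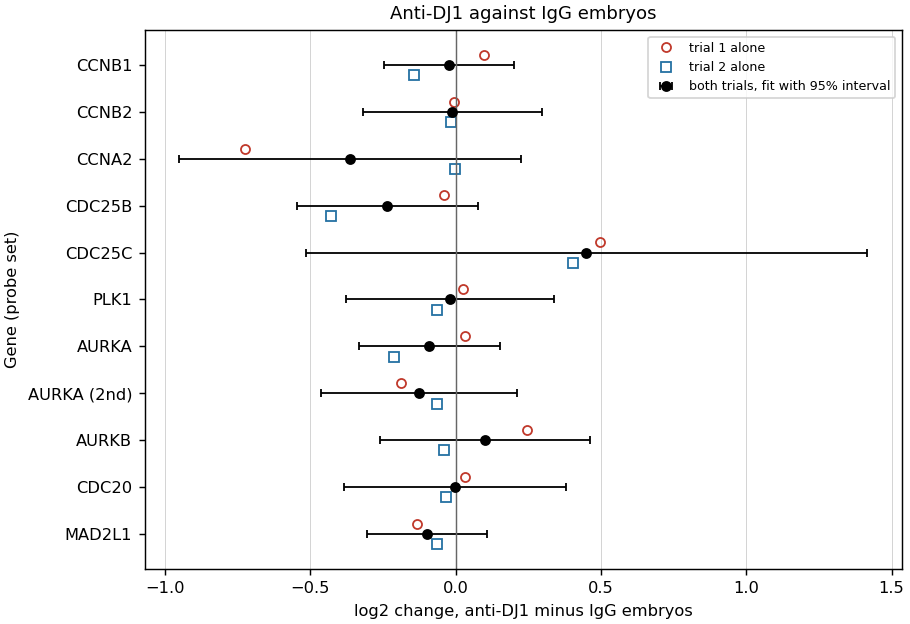
Log2 change of each probe set, anti-DJ1 minus IgG embryos, with the fit over both trials (black, 95% confidence interval) and the difference within each trial (open symbols). All 11 intervals span 0, and the widest is that of CDC25C.

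Against non-injected embryos, 1 of the 10 genes passed the test, CCNA2, which was higher in IgG embryos and missed the threshold in anti-DJ1 embryos. CCNA2 signals were 195 and 337 in anti-DJ1 embryos, 325 and 337 in IgG embryos and 73.1 in the non-injected pool, so that all 4 injected pools lay above it, as they did for 26.3% of tested probe sets. In IgG embryos the log2 change was 1.91 ± 0.36 (adjusted p = 0.0327), a fold of 3.75 with an interval of 2.19 to 6.42, and CCNA2 was the 1 of 10 genes that passed there, where 1.26% of tested probe sets did (0.917% higher, 0.347% lower). In anti-DJ1 embryos it was 1.54 ± 0.36 and missed the threshold (adjusted p = 0.0519), so 0 of 10 genes passed limma's test there (2 had an unadjusted p under 0.05, against 18.5% of tested probe sets), where 1.92% of tested probe sets passed (1.26% higher, 0.653% lower). The anti-DJ1 value passed under 4 of the alternatives, among them quantile normalization (0.0434) and a common 75th percentile (0.0352), and the difference between anti-DJ1 and IgG embryos did not pass (0.927). The comparisons share the single non-injected array, which is assumed to vary like the others. The IgG call was lost with no filter on low values (adjusted p = 0.0801), without the mean-variance trend (0.287) and without the trial block (0.994). Each fit that left out an array lost it too, but those fits had no trial term. They thus cannot tell the part of the array from that of the block.

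The other genes stayed closer to the non-injected pool. CDC25C and AURKB also lay above it on all 4 injected arrays, with AURKB at a log2 change of 0.40 ± 0.22 in anti-DJ1 embryos (adjusted p = 0.371) and 0.30 ± 0.22 in IgG embryos (0.527). CCNB1 and MAD2L1 lay below it on all 4 injected arrays, as did 19.9% of tested probe sets. MAD2L1 was at -0.30 ± 0.12 in anti-DJ1 embryos (0.225) and -0.20 ± 0.12 in IgG embryos (0.445), and CCNB1 at -0.25 ± 0.14 (0.369) and -0.22 ± 0.14 (0.432) in those groups. Quantile normalization turned the signs of CCNB1 and MAD2L1 in both comparisons. The dimmer AURKA probe set was at 0.49 ± 0.20 in anti-DJ1 embryos (0.222) and 0.62 ± 0.20 in IgG embryos (0.146), while the brighter one was at -0.13 and -0.044, so the AURKA probe sets differed in sign. Median log2 changes of the 10 genes were -0.14 in anti-DJ1 and -0.037 in IgG embryos, against -0.0078 and -0.0059 over all tested probe sets.

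**Figure D3:**
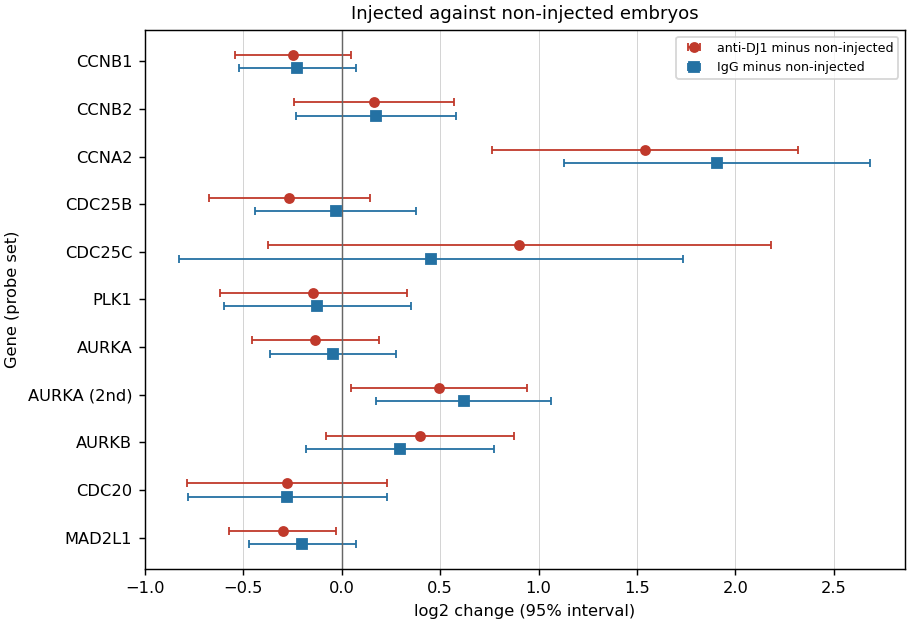
Log2 change of each probe set against the single non-injected pool, for anti-DJ1 embryos (circles) and IgG embryos (squares), with 95% confidence intervals. CCNA2 stands apart at 1.54 in anti-DJ1 and 1.91 in IgG embryos, and most of the other intervals span 0.

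Set against the fibroblasts whose nuclei they received, the embryos had far higher signals for most of these transcripts. Each array was labelled from 50 ng of RNA and had a like trimmed mean, so signals are relative and not amounts per embryo or cell. Of the 10 genes, 9 were higher in embryos, 0 were lower and CDC25C did not pass, where 72.9% of tested probe sets passed, 36.4% higher and 36.5% lower. The median log2 change of the 10 genes was 3.78, or 3.64 with PLK1 and CDC20 at their bounds (3.34 from trial 1 pools alone), against -0.025 over all tested probe sets. All 5 embryo pools lay above the donor cells for 9 of 10 genes, as they did for 40.9% of tested probe sets. A lower transcript level in the bulk culture may mean fewer cells in G2 and mitosis or a smaller share of the RNA in each cell, which cannot be told apart here. An embryo pool cannot be split by cell either.

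Of the genes measured on both sides, CCNB1 and AURKA differed most. CCNB1 averaged 24535 ± 5732 over the 5 embryo pools (SD) and was higher by 6.84 ± 0.12 on the log2 scale (SE, adjusted p = 2.74e-13), a fold of 115 with an interval of 96.0 to 138. AURKA averaged 10481 ± 1321 and was higher by 6.11 ± 0.13, with 4.14 ± 0.18 by its dimmer probe set. PLK1 averaged 1297 ± 700.03 in embryos and was not above background in donor cells, so it was at least 29.9-fold higher in embryos (adjusted p = 4.34e-11), or at least 20.3-fold from the 3 trial 1 pools alone. CDC20 averaged 1070.4 ± 621 in embryos and was at least 24.2-fold higher (adjusted p = 6.67e-11), or at least 16.0-fold from the trial 1 pools, which the higher trial 2 signals do not enter. The bounds set the mean log2 signal of the embryo arrays against the highest Tag control of the donor array, with no term for the trial.

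CCNB2 was higher by 4.87 ± 0.16 and MAD2L1, which the fibroblasts also expressed at 4000.0, by 2.68 ± 0.11. CCNA2 was higher by 2.14 ± 0.31 over the embryo groups, made up of 2.53 ± 0.36 in anti-DJ1, 2.89 ± 0.36 in IgG and 0.99 ± 0.38 in non-injected embryos. The smallest differences that passed were AURKB at 1.03 ± 0.19 (adjusted p = 0.000357) and CDC25B at 0.87 ± 0.16 (adjusted p = 0.000405). Both are fitted at the level of trial 1, to which the donor array was assigned by its replicate number. AURKB was lost without the trial block (1.74, adjusted p = 0.209), the only gene of the 10 that was. The AURKB call was also lost without the trial 2 array of anti-DJ1 (adjusted p = 0.0938) or of IgG embryos (0.0665), and that of CDC25B without any 1 of the 4 injected arrays (0.0759 to 0.154), in fits with no trial term. CDC25C was at 0.43 ± 0.51 (adjusted p = 0.473), and in non-injected embryos at -0.026, so the data set no direction for it. With quantile normalization or a common 75th percentile the same number of genes, 9, passed, while the median of all tested probe sets was 0.42 and 0.59 under those scalings. The controls for shortened RNA set the donor array on different sides: the ratio of 3′ to 5′ signal was 8.20 to 30.0 in embryos and 4.23 in donor cells for EF1A, 45.0 to 665 and 141 for actin, and 6.65 to 17.6 and 21.1 for GAPDH. Their part in these differences was not tested. The test rests on 1 donor array, which is assumed to vary like the embryo arrays.

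**Figure D4:**
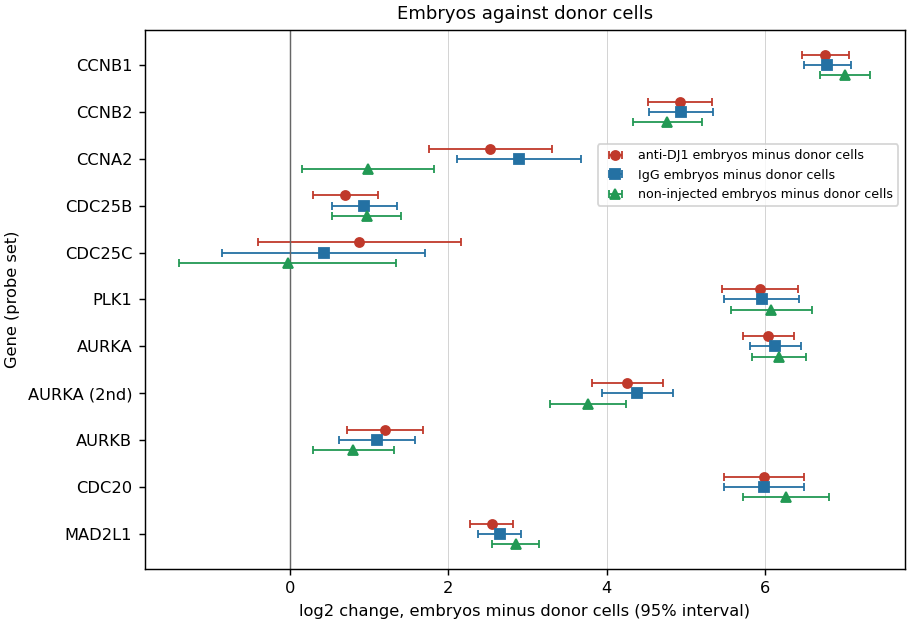
Log2 change of each probe set against the donor cells for anti-DJ1 (circles), IgG (squares) and non-injected embryos (triangles), with 95% confidence intervals from the same fit. CCNB1, AURKA, PLK1 and CDC20 lie near 6 or above (for PLK1 and CDC20 against a donor signal not above background), AURKB and CDC25B near 1, and the intervals of CDC25C span 0.

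Between the trials of injected embryos these genes separated in both directions. In trial 2, AURKB, CDC20 and PLK1 were higher and MAD2L1 and CCNB1 lower, so 5 of 10 genes passed, where 32.3% of tested probe sets did (18.9% higher, 13.4% lower). The median log2 change of the 10 genes was 0.17, close to the 0.14 over all tested probe sets. Without the mean-variance trend 0 probe sets passed, and the adjusted p of AURKB, CDC20 and PLK1 was 0.0823.

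AURKB had 1857 and 1912 in the anti-DJ1 and IgG embryos of trial 2, against 463 and 390.2 in those of trial 1 and 333 in the non-injected pool. Over the injected groups the fitted log2 change was 2.14 ± 0.17 (SE, adjusted p = 1.42e-05), a fold of 4.40, with 1.99 in anti-DJ1 and 2.28 in IgG embryos. Of the tested probe sets, 0.486% rose as far or farther. CDC20 had 1728 and 1769 in trial 2 against 583, 571 and 700.3 in trial 1, a change of 1.59 ± 0.17 (adjusted p = 7.72e-05). PLK1 had 2016 and 2109 in trial 2 against 769, 755 and 836 in trial 1, a change of 1.43 ± 0.16 (adjusted p = 9.21e-05). In each of these genes the trials did not overlap, and the change had the same sign in anti-DJ1 and IgG embryos (1.56 and 1.62 for CDC20, 1.39 and 1.48 for PLK1).

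MAD2L1 went the other way, with 11921.5 and 12451 in trial 2 against 23146.5, 25397 and 28825 in trial 1, a log2 change of -0.99 ± 0.09 (adjusted p = 4.02e-05). CCNB1 changed by -0.52 ± 0.10 (adjusted p = 0.00252), with signals of 17780.3 and 19646 in trial 2 against 27742, 25920.1 and 31586 in trial 1. The direction of CCNB1 depended on the scaling, since it was 0.33 after quantile normalization (adjusted p = 0.0146) and -0.77 with a common 75th percentile. AURKB, CDC20, PLK1 and MAD2L1 kept their direction and their call under both scalings, with MAD2L1 at -0.57 after quantile normalization. The median of all tested probe sets was -0.0040 and -0.095 under those scalings, against 0.14 in the values as deposited.

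The other 5 genes did not pass. AURKA was at 0.31 ± 0.11 (adjusted p = 0.0525), passed after quantile normalization (0.72), and its dimmer probe set passed at 0.62 ± 0.15 (adjusted p = 0.00935). CCNA2 was at 0.41 ± 0.27, CCNB2 at -0.18 ± 0.14, CDC25B at 0.026 ± 0.14 and CDC25C at 0.017 ± 0.44. CCNB2 passed with a common 75th percentile (-0.42, adjusted p = 0.0313). Over the 3 embryo arrays of trial 1 and the 2 of trial 2, 8 of 10 genes did not overlap (5 above, 3 below in trial 2), where 54.1% of tested probe sets did not (33.9% above, 20.2% below).

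Stored oocyte transcripts and some of the RNA quality controls moved with the trial as well. EF1A, actin and GAPDH have probe sets near both ends of their transcripts, and the ratio of 3′ to 5′ signal grows as the labelled RNA gets shorter. For EF1A that ratio was 8.20 (anti-DJ1) and 9.34 (IgG) in trial 2, against 24.2 (anti-DJ1), 23.9 (IgG) and 30.0 (non-injected) in trial 1 and 4.23 in the donor array. For actin it was 45.0 (anti-DJ1) and 68.4 (IgG) in trial 2, against 265 (anti-DJ1), 258 (IgG) and 665 (non-injected) in trial 1. GAPDH did not separate the trials, at 6.65 (anti-DJ1) and 16.1 (IgG) in trial 2 against 17.6 (anti-DJ1), 7.46 (IgG) and 8.49 (non-injected) in trial 1, so the controls disagreed. Of the 7 oocyte markers, 6 were higher on both trial 2 arrays than on all 3 embryo arrays of trial 1 and 1 (KPNA7) was lower. By the same rule 33.9% of all tested probe sets were higher and 20.2% lower. ZP2 had 5383 and 4596 in trial 2 against 1924, 1730.05 and 1748 in trial 1. The part of RNA quality and of oocyte stores in these values was not tested.

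**Figure D5:**
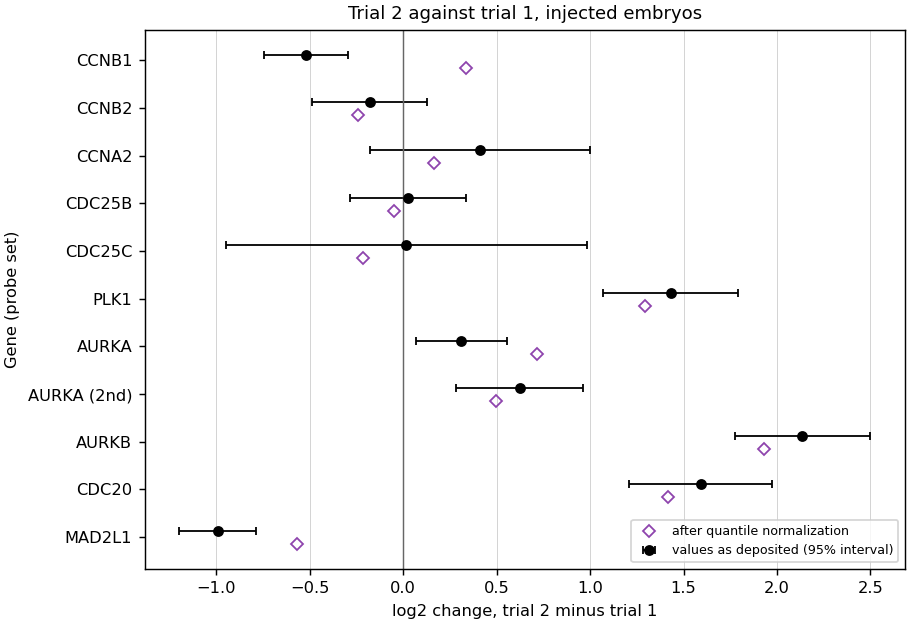
Log2 change of each probe set, trial 2 minus trial 1 of the injected embryos, from values as deposited (black, 95% confidence interval) and after quantile normalization (open diamonds). AURKB, CDC20 and PLK1 lie to the right under both scalings, MAD2L1 to the left, and CCNB1 changes side.

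Lists of other cell cycle genes place these values in their pathways. Each list was read by counts and medians, and its passing genes with the largest changes are named. Of the 38 genes tested over the lists, 0 passed limma's test between anti-DJ1 and IgG embryos, between anti-DJ1 and non-injected embryos, or between IgG and non-injected embryos, while 2, 14 and 11 had an unadjusted p under 0.05, against 5.82%, 18.5% and 17.3% of all tested probe sets. For anti-DJ1 against IgG embryos the list medians were -0.084, 0.0043, -0.038 and 0.065 for CDK1 partners and brakes, the APC/C, the spindle checkpoint and other mitotic kinases, and the G1 machinery. No chance test was run on the lists. CDK1 itself had no probe set with that single symbol in the annotation used here.

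Of 10 tested partners and brakes of CDK1 (20 listed), 6 were higher and 4 lower in embryos than in donor cells (background 36.4% higher and 36.5% lower, as for the lists that follow), with a median log2 change of 2.40 (2.12 with PKMYT1 and FOXM1 at their bounds over the 5 pools). The kinases that restrain CDK1 went opposite ways. WEE2, the oocyte form, averaged 25827 ± 10671 in embryos and 53.4 in donor cells, higher by 9.07 ± 0.14 (adjusted p = 1.35e-13). WEE1, the somatic form, averaged 45.1 ± 16.7 in embryos, where 2 of 5 arrays were above background, and 1482 in donor cells, so it was at least 29.2-fold lower in embryos (adjusted p = 6.46e-07). The CDK1-binding subunits CKS1B and CKS2 were each higher by 3.48, and FOXM1, a transcription factor of G2 genes, was at least 12.1-fold higher from the trial 1 pools. Also lower were the phosphatase inhibitors ENSA (-3.58) and ARPP19 (-1.81), and CDK7, the kinase that activates CDK1 (-0.94). The CDK7 call was lost with a common 75th percentile and also without the trial block. The dimmer ENSA probe sets were at 0.36 and 0.38 and did not pass, so ENSA rests on its brightest probe set.

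In the APC/C list 4 of 10 tested genes were higher, 5 lower and 1 did not pass in embryos, a split near that of all tested probe sets, with a median of -0.35. Higher were PTTG1, the securin that APC/C destroys at anaphase (7.50 ± 0.13), the ubiquitin-conjugating enzyme UBE2C (4.08 ± 0.15), and the subunits ANAPC1 (1.56) and ANAPC15 (1.20). Lower were the subunits ANAPC16 (-2.56), CDC26 (-2.33), ANAPC2 (at least 1.82-fold lower, with 3 of 5 embryo arrays above background) and ANAPC5 (-1.05). The calls of ANAPC2 and ANAPC5 were lost under quantile normalization and under a common 75th percentile. Without the trial block the calls of ANAPC15 (at 1.80 there), ANAPC2 and ANAPC5 were lost.

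The list of spindle checkpoint, passenger complex and other mitotic kinase genes also held GMNN, which acts in replication licensing, and STMN1, a microtubule regulator. Of its 11 tested genes, 7 were higher, 2 lower and 2 did not pass in embryos, with a median of 1.02. PLK3, a stress-linked relative of PLK1, was at least 10.1-fold higher from the trial 1 pools, NEK2, a centrosomal kinase, was higher by 4.65 ± 0.14 and GMNN, the inhibitor of replication licensing, by 3.95 ± 0.13. HASPIN, which marks chromatin for the passenger complex, was higher by 1.21, and its call was lost without the trial block. PLK2, another relative of PLK1, was at least 19.8-fold lower (4 of 5 embryo arrays above background). BUB3, a checkpoint protein, was at -0.59 but at 0.045 with a common 75th percentile. The BUB3 call was lost there and also without the trial block. Of 7 tested G1 genes, 2 were higher, 3 lower and 2 did not pass, with a median of -1.04. CDK2 was higher by 1.41. CDKN2C was above background on 4 of 5 embryo arrays and not in donor cells, and its bound of at least 1.70-fold higher rested on trial 2, with at least 1.05-fold from the trial 1 pools. The inhibitors CDKN1B (at least 14.8-fold lower, with 4 of 5 embryo arrays above background, and at least 11.2-fold in trial 1) and CDKN1A (-2.61) and the pocket protein RBL2 (-1.32) were lower. The dimmer CDKN1B probe sets, too dim to be tested, had 37.9 and 21.1 in donor cells. In embryos they had 6.91 to 71.6 and 8.92 to 39.1, so CDKN1B rests on its brightest probe set.

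Between trials the same lists gave 6 higher, 2 lower and 2 not passed for CDK1 partners and brakes, 2, 2 and 6 for the APC/C, 5, 0 and 6 for the spindle list, and 2, 1 and 4 for the G1 list, where 18.9% of all tested probe sets were higher and 13.4% lower. Their median log2 changes were 0.38, 0.37, 0.39 and 0.50, against 0.14 over all tested probe sets. In the first list MYBL2, a transcription factor of G2 genes, was higher in trial 2 by 1.56 ± 0.15, CKS2 by 0.89, PKMYT1 by 0.82 and FOXM1 by 0.54, and the calls of PKMYT1 and FOXM1 were lost under both scalings. A second MYBL2 probe set, too dim to be tested, had 33.5 and 118 in anti-DJ1 embryos (trial 1, trial 2). In IgG embryos it had 40.8 and 21.7, so MYBL2 rests on its brightest probe set. WEE2 was at -0.70 and CDK7 at -0.65, and WEE2 was at 0.011 after quantile normalization. ANAPC15 was higher by 1.80 ± 0.20 and UBE2C by 1.28 ± 0.13, although a dimmer UBE2C probe set was at -0.85 ± 0.28 (adjusted p = 0.0367).

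PTTG1 was at -0.69 (0.059 after quantile normalization) and ANAPC4 at -0.59. PLK3 was higher in trial 2 by 1.62, BIRC5, the passenger complex partner of AURKB, by 1.23 ± 0.24, MAD2L2 by 0.85 and STMN1, a microtubule regulator, by 0.50. The calls of MAD2L2 under both scalings, and of STMN1 with a common 75th percentile, were lost. CDKN1A was higher by 1.09 and CDK2 by 0.96, while a dimmer CDK2 probe set was at 0.50 (adjusted p = 0.167). CDKN1B was at -1.27, with its trial 2 signal in IgG embryos (35.0) not above the background of that array (45.7).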

How the data were processed

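RNA of 5 embryo pools and 1 donor cell culture was labelled in a two-cycle protocol from 50 ng and hybridised to 1 array each, per the labels' protocols. The authors deposited MAS5 intensity values on a linear scale, and the submitters' processing notes name MAS5, with its version and its target for scaling not given in the sources used here; calls of presence per probe set were not used. Each array's trimmed mean was about 500.1, and the 6 arrays limit the precision. Of 24123 probe sets, 124 controls were left out. The array annotation gave 1 symbol to 10069 of the other 23999, several to 198 and none to 13732, and no symbol changed through its Entrez ID.

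The pseudocount was 4.57, the signal that 10% of all values lie below. Tests were run on log2(signal + 4.57) by limma 3.58.1 in R 4.3.3, with eBayes and its mean-variance trend, over all 6 arrays, with a term per group and the trial as a block. The fit left 1 residual degree of freedom and 10.7 prior ones. The 14399 probe sets in the upper 60% by mean log2 signal (mean signal above 39.6) were tested, p-values were adjusted by Benjamini-Hochberg over them, and 0.05 was the threshold. The trial pairing comes from the series' design text, and deviations from the group means correlated at 0.588 within trials. With 2 pools a group, p-values rest mostly on a spread that limma shares over all tested probe sets. The pools of a gene add little to it, after the trial term is taken out. The difference between embryos and donor cells is the mean of the 3 embryo groups at the level of trial 1. A signal under the highest Tag control of its array counted as not above background. Between embryos and donor cells, a passing gene whose lower side held such signals got a bound, "at least N-fold", with those arrays at their Tag control. The code was tested on simulated data. A gene with several probe sets was counted by the one with the highest mean, and of each list up to 4 passing genes a direction with the largest change were named. The members, lists and tests were chosen with earlier results of these data known. The alternatives changed the pseudocount, filter, scaling, trend, block and arrays included.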

Additional observations from a re-analysis of the deposited data

How the results depend on the processing

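Over the alternatives tried, 78 of the counts of passing genes or probe sets stayed within 1.5 times, 14 became larger and 23 smaller, and of the single gene values 613 kept their direction and side, 21 lost and 8 gained a call and 57 reversed; the causes were not tested. For anti-DJ1 against IgG embryos 0 probe sets passed, against 1 with the pseudocount at the 25th percentile, 1 after quantile normalization, 1 with a common 75th percentile and 43 with the upper 40% tested. For anti-DJ1 against non-injected embryos 276 passed, against 589 (25th percentile pseudocount), 71 (no filter), 878 (upper 40%), 467 (75th percentile), 0 without the trend, 0 without the trial block and 0 to 1 with an array left out; of the 10 genes 0 passed, against 1 with the 25th percentile pseudocount, the upper 40%, quantile normalization or the 75th percentile. For IgG against non-injected embryos 182 passed, against 447, 48, 726 and 312 under the same changes, 0 without the trend, 0 without the block and 0 with an array left out; of the 10 genes 1 passed, against 0 with no filter, without the trend, without the block or with an array left out. Without the trend 0 probe sets and 0 of the 10 genes passed between trials, against 4651 and 5. Where a fit without the block could be made (all comparisons but that of the trials), it changed no call among the 10 genes other than those of CCNA2 in IgG embryos and AURKB against donor cells (1.74 without it).

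Reversed log2 values follow. In anti-DJ1 against IgG embryos CCNB1 was at 0.055 after quantile normalization and CDC20 at 0.00080 with the 75th percentile. In anti-DJ1 against non-injected embryos quantile normalization gave 0.20 for CCNB1 and 0.093 for MAD2L1, and no replicate block gave 0.57 for PLK1, 0.020 for AURKA and 0.52 for CDC20. In IgG against non-injected embryos quantile normalization gave 0.15 for CCNB1, 0.057 for AURKA and 0.14 for MAD2L1, and no replicate block gave 0.59 for PLK1, 0.11 for AURKA and 0.52 for CDC20. CDC25C was at -0.026 in non-injected embryos against donor cells. Between trials quantile normalization gave 0.33 for CCNB1, -0.049 for CDC25B and -0.21 for CDC25C, and the 75th percentile gave -0.22 for CDC25B and -0.21 for CDC25C.

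With 1 injected array left out the fit has no trial term, so by construction the groups hold unequal trials. The anti-DJ1 against IgG values then ranged from -0.34 to 0.30 for CCNB1, -0.10 to 0.080 for CCNB2, -0.75 to 0.023 for CCNA2, -0.76 to 0.72 for PLK1, -0.31 to 0.12 for AURKA (-0.47 to 0.22 by its dimmer probe set), -1.04 to 1.24 for AURKB, -0.81 to 0.81 for CDC20 and -0.61 to 0.42 for MAD2L1. Against non-injected embryos, the anti-DJ1 values ranged from -0.017 to 0.17 for CCNB2, -0.12 to 1.26 for PLK1, -0.074 to 0.11 for AURKA and -0.26 to 1.30 for CDC20, and the IgG values from -0.0023 to 0.17 for CCNB2, -0.13 to 0.093 for CDC25B, -0.15 to 1.33 for PLK1, -0.10 to 0.33 for AURKA and -0.29 to 1.33 for CDC20. Signals near background limit CDC25C and the donor values of CCNA2, PLK1 and CDC20.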
